A study of Rattus norvegicus with 12 samples.

Results

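The comparison described here set 3 arrays of hippocampal cultures collected 7 h after oxygen and glucose deprivation (OGD) against 3 arrays of control cultures of the same age and time. The 6 arrays were chosen by their titles (OGD 7h and Ctrl 7h, replicates 1 to 3) from the 12 arrays of the series, the other 6 being the same conditions at 24 h. All cultures were primary hippocampal neurons of Wistar rat embryos at embryonic day 18, with the glia such cultures keep, grown in Neurobasal medium for 14 to 15 days. OGD cultures spent 2 h in an anaerobic chamber in saline with 25 mM sucrose and no glucose. Control cultures spent the same time in air and CO2 in saline with 25 mM glucose, so the groups differed in the saline's sugar and in the gas phase, and all returned to conditioned medium to recover. The 3 arrays of a group stand for 3 independent cultures, and labelled RNA started from 200 ng per culture.

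OGD in a dish removes oxygen and glucose together, as a stop of blood flow does, and neurons then lose ATP, depolarise and release glutamate. Cells that survive the first hours rewrite their transcription: immediate early genes and stress factors come first, secreted signals, proteases and inflammatory mediators follow, and genes of synaptic function often decline. The arrays measured relative RNA levels of such genes at 7 h, with no earlier time to show their order.

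Each array is an Agilent one-colour design on which the fluorescence of a probe reports the labelled RNA bound to it. Levels are given as log2 intensity with the median of the array set to 0, so a level of 3 is 8 times the median probe, and a difference is OGD minus control on that log2 scale. A probe was called higher or lower when limma gave an unadjusted p under 0.05 and the fold was at least 2. The median intensity was 447.1 to 660.3 units on the control arrays and 234.2 to 425.7 on the OGD arrays, and 78.35% to 86.75% of spots were well above background. Arrays lay in pairs on 3 slides, 1 control and 1 OGD array of the same number on each, and the 2 arrays of slides 1 and 2 were scanned 211 min apart while those of slide 3 were scanned together. All 19 neuron markers were well above background on all 6 arrays, as were 14 of 15 astrocyte and 14 of 14 oligodendrocyte lineage markers. For microglia 11 of 16 were, and for vascular cells and fibroblasts 10 of 15, near the 21373 of 30367 over all probes. Those 2 counts therefore do not show such cells by themselves. The neuron markers fit the label of hippocampal neurons, but the count does not set them apart from the oligodendrocyte lineage.

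Of 30367 probes, 670 were called higher after OGD (2.21% of all tested) and 555 lower (1.83%). At an unadjusted p under 0.05 by limma alone there were 5453 probes, 2340 higher and 3113 lower. None passed Benjamini-Hochberg adjustment over all probes, where the lowest adjusted p was 0.107. When the 7916 probes that were not well above background on all 3 arrays of either group were left out before the fit, 85 of 22451 probes (0.379%) passed at an adjusted p under 0.05, 36 higher and 49 lower, all on the same side on the 3 slides and 62 of them well above background on all 6 arrays. A probe could pass that filter through the group in which it was high. The methods' t-test called 380 probes higher and 428 lower.

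How many probes were called in each direction depended on where the arrays were centred. With the median at 0, 54.7% of the calls were higher, against 69.7% when the 75th percentile was set to 0, 62.2% after quantile normalization and 63.9% after normexp, a model-based background correction. When arrays were scaled to the spike-in probe, the median of all probes moved to -0.86 and 6.3% of the calls were higher, so every value below is relative to the median probe of its array. Under that scaling the median of all named genes was -0.91, so a list median below 0 there can still lie above it. Only 1 of 10 kinds of spike-in probe was usable for the scaling. The slides did not weigh alike. The probe differences of slide 1 correlated with those of slide 2 at 0.713 and with those of slide 3 at 0.379, over 21373 probes that share arrays, signal range and probe sequence.

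**Figure D1:**
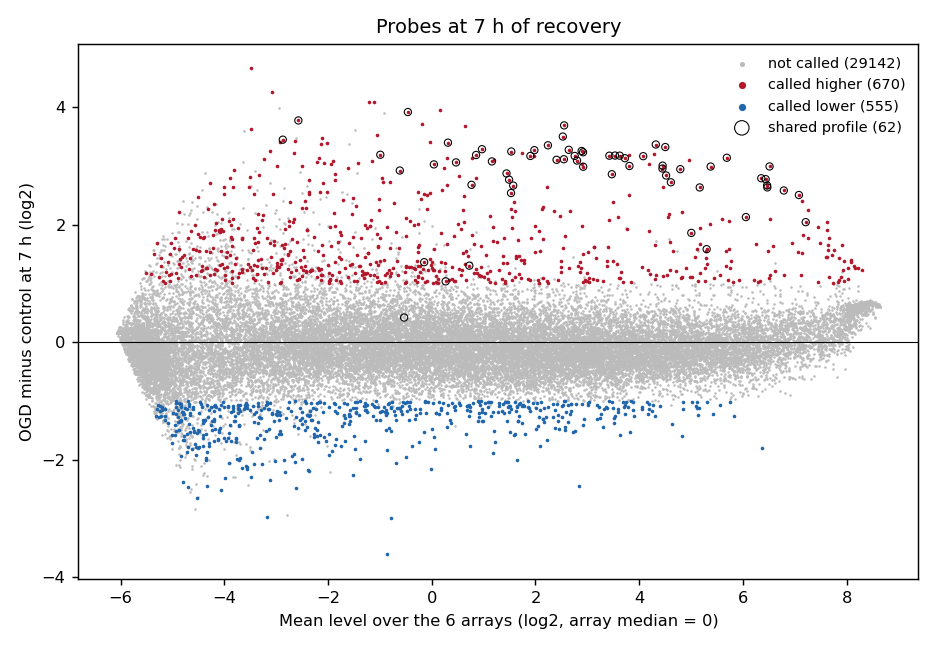
Log2 difference (OGD minus control at 7 h) against the mean log2 level over the 6 arrays, with 1 point per probe, red for the 670 called higher and blue for the 555 called lower. Black circles mark 62 probes with 1 shared profile, most of which lie above 1.5 at every level, and the points at the right edge, near 0.6, are saturated probes.

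By gene, 248 of 15154 named genes were called higher (1.64%) and 344 lower (2.27%), each gene taken by the probe with the highest mean level, and the median difference over all named genes was -0.11. Without any threshold on fold, 826 named genes were higher (5.45%) and 1803 lower (11.9%) at p under 0.05. Probes with no gene name made up 386 of the 670 called higher and 150 of the 555 called lower. Of the calls, 559 higher and 426 lower probes were well above background on all 3 arrays of a group, among them 100 higher only through the OGD arrays and 126 lower only through the control arrays. In 111 higher and 129 lower calls the probe was not well above background on all 3 arrays of either group.

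Several genes of extracellular proteolysis, clotting control and the endothelial surface, named after their values were seen, were called higher. Plau, the urokinase-type plasminogen activator, read -1.89, -2.61 and -1.92 on the control arrays and 0.48, -0.36 and 0.22 on the OGD arrays, a difference of 2.25 ± 0.30 (SE, n = 3 arrays per group, limma adjusted p = 0.141, and 0.03 with dim probes left out). Every OGD array lay above every control array. Plaur, the receptor that holds urokinase at the cell surface, rose with it, from -1.38, -0.90 and -0.32 to 0.76, 0.33 and 0.18 (difference 1.29 ± 0.31). Its groups do not overlap either.

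Thbd encodes thrombomodulin, the surface receptor that turns thrombin towards activating protein C. It read -2.24, -3.38 and -1.46 on the control arrays and 0.98, -0.13 and 0.44 on the OGD arrays, a difference of 2.79 ± 0.53 (limma adjusted p = 0.183), with no overlap. A second Thbd probe was not well above background on any of the 6 arrays and has no usable level. Procr, the endothelial protein C receptor that works beside thrombomodulin, differed by 1.85 ± 0.45. F3, tissue factor, the starter of clotting, was measured at 6.25, 6.39 and 6.2 in controls and 7.51, 7.27 and 6.70 after OGD, a difference of 0.88 that stays under the fold of 2. Cd93, a surface glycoprotein of endothelium and myeloid cells, had one of the lowest p-values on the array. Its control levels of 0.64, 0.19 and 0.64 and OGD levels of 2.58, 2.74 and 2.85 gave a difference of 2.23 ± 0.19 (limma adjusted p = 0.107, and 0.0171 with dim probes left out). Of 15 markers of vascular cells and fibroblasts, none was called higher by limma (0 at p under 0.05). Over all named genes 1.64% were called higher and 5.45% were higher at p under 0.05, so a list of 15 can show none. The list median was 0.14 (-0.66 under spike-in scaling), against -0.11 over all named genes. Cldn5 was called lower but was not well above background on any OGD array, and it was at 0.74 under the normexp background correction. The summed linear levels of the list were 65.7 to 178 times the array median in controls and 99.2 to 218 after OGD, with overlapping ranges. The part of such cells in Thbd, Procr and Cd93 was not tested.

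In the list of matrix metalloproteinases, ADAM and ADAMTS proteases and their inhibitors, 7 of 60 genes were called higher and 4 lower, with a list median of 0.09 (-0.72 under spike-in scaling) against -0.11 over all named genes. The shares to set beside this and every later list count are 1.64% of all named genes called higher and 2.27% called lower. Plau and Plaur were among the 7, and so was Adamts1, which cleaves proteoglycans of the extracellular matrix. It read 2.36, 1.91 and 2.83 in controls and 4.39, 4.49 and 4.48 after OGD, 2.09 ± 0.25 higher, with the 3 OGD values close together. Tfpi2 (2.83), Adamts7 (1.17) and Mmp3 (1.78) were also called higher, and Mmp3 lost its call without any 1 of 5 arrays (1.03 without OGD replicate 3). Among the genes called lower, Adam7, known from the epididymis, fell from 3.10, 2.99 and 2.83 to -0.05, 1.59 and 2.07, and by 1.14 without OGD replicate 1. Adam2, Mmp28 and Mmp9 were called lower with OGD arrays at or near background: Adam2 was at least 3.04-fold and Mmp28 at least 3.64-fold lower, as lower bounds against the weakest signal still well above background, while Mmp9 was well above background on 1 OGD array. Under the normexp background correction these 3 turned sign, to 0.41, 0.12 and 0.27.

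Inflammatory genes rose in part. The chemokine list had 5 of 35 genes called higher and 2 lower, where 1.64% and 2.27% of all named genes were. Its median was 0.62 (-0.19 under spike-in scaling, where that over named genes was -0.91). Of the 35, 23 were well above background on all 3 arrays of at least 1 group. Cxcl1, which attracts neutrophils, read 3.02, 2.42 and 2.59 in controls and 5.63, 5.07 and 6.45 after OGD, a difference of 3.04 ± 0.37 (limma adjusted p = 0.132, and 0.0269 with dim probes left out). Its relative Cxcl2 read -2.40, -3.65 and -3.72 against -0.25, -0.99 and 3.73, so 1 OGD array stands far above the other 2, and the difference of 4.09 ± 1.21 became 2.63 without OGD replicate 3. Ccl20, the ligand of Ccr6, was at -3.23, -2.66 and -2.57 in controls and -0.60, -1.28 and 4.02 after OGD, and went from 3.53 ± 1.33 to 1.88 without the same array. Its call was also lost, on p, without any 1 of the control arrays (3.33, 3.61 and 3.66 without replicates 1, 2 and 3), and a second probe differed by 3.37. Ccl25 (1.23) and Cxcl16 (1.1) were the other 2 called higher, and Ccl25 lost its call without control replicate 2 (1.14), OGD replicate 1 (1.1) or OGD replicate 2 (0.95). The count of 5 was 1 by the methods' t-test, 3 without control replicate 1, 2 without control replicate 2, 10 without control replicate 3, 8 without OGD replicate 1, and 9 under normexp or with the slide as a block. The 2 chemokines called lower were Ccl17 (-0.76, -1.45 and -0.72 against -2.38, -2.26 and -1.96) and Ccl1.

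Among 34 cytokines and cytokine receptors, 3 were called higher and none lower, with a median of 0.32 (-0.49 under spike-in scaling). Il1rn, the antagonist of the interleukin-1 receptor, rose from -2.53, -2.68 and -2.31 to -0.79, -1.05 and -1.31, a difference of 1.45 ± 0.20 (limma adjusted p = 0.145, and 0.0322 with dim probes left out). The agonist Il1b was well above background on 0 of 3 control arrays and 1 of 3 OGD arrays, and Tnf was above it on 1 array of each group, so neither has a usable level here. Il6 was well above background on 1 control and 3 OGD arrays, at -4.40, -5.76 and -4.60 against -1.11, -3.33 and -1.86 (difference 2.82 ± 0.63). Il1rl1, the receptor of interleukin-33, had controls of -2.68, -1.85 and 0.92 and OGD arrays of 2.14, 3.05 and 2.24, and its second probe was not well above background on any of the 6. The groups do not overlap in any of these 3 called genes.

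In the list of the NF-kappaB pathway and its targets, 3 of 27 genes were called higher and none lower (median 0.50, and -0.30 under spike-in scaling), and the count of 3 was 1 by the methods' t-test or under normexp and 0 under spike-in scaling. Tlr2, a receptor for bacterial lipoproteins and danger signals, moved from -0.49, -0.38 and -0.58 to 0.86, 1.99 and 1.14, which is 1.81 ± 0.30 (limma adjusted p = 0.175). Ripk3, the kinase of necroptosis, went from -0.89, -0.42 and 0.96 to 1.22, 1.45 and 1.63. Icam1, an adhesion molecule for leukocytes, differed by 1.30 ± 0.42 and lost its call without control replicate 1 (1.29) or control replicate 2 (1.08), on p, or OGD replicate 3 (0.86). Interferon-stimulated genes had 1 of 34 called higher, Bst2 at 1.12, where 1.64% of all named genes were. Their median was 0.45 (-0.35 under spike-in scaling), and the Bst2 call was lost without control replicate 2 (1.0) or OGD replicate 3 (0.80). Outside the lists, Map3k8, a kinase that links these receptors to ERK, rose from -3.56, -3.93 and -3.21 to -1.82, -1.94 and -1.67, with 2 control arrays well above background.

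Immediate early genes and AP-1 factors are the first transcription factors a stimulus switches on, and AP-1 pairs such as Fos with Jun bind short DNA elements in their target genes. At 7 h, 8 of 33 were called higher and 2 lower, with a median of 0.42 (slides 0.44, 0.69 and 0.02) that turned to -0.39 under spike-in scaling and was 0.01 under normexp. The 8 higher calls became 5 by the methods' t-test, 1 under normexp and 0 under spike-in scaling. Junb read 6.25, 6.08 and 6.33 in controls and 7.51, 7.50 and 7.09 after OGD, a difference of 1.15 ± 0.18 (limma adjusted p = 0.168). Ier3, an early gene of survival signalling, rose from 2.39, 2.30 and 2.66 to 3.99, 3.87 and 3.8, 1.44 ± 0.17 (adjusted p = 0.132, and 0.0269 with dim probes left out). Both sets of 3 arrays are tight and apart.

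Myc (1.23), Batf3 (1.53), Atf3 (1.11), Klf4 (1.40), Maff (1.46) and Fosl1 (1.46) completed the 8. Without OGD replicate 1 the list kept 4 calls, and Atf3 (0.86), Klf4 (0.93), Maff (0.93) and Fosl1 (0.98) were the ones lost. Without control replicate 2, Klf4 (1.22), Maff (1.33) and Fosl1 (1.24) also missed the threshold on p. Other early genes, among them Fos, Egr1 and Arc, were not called. Fos read 3.83, 3.67 and 3.95 in controls and 4.0, 4.16 and 3.83 after OGD. Egr1 differed by 0.58 and Arc by -0.37, and in all 3 the groups overlap. Egr4, a neuronal early factor, was called lower, from 6.11, 6.22 and 5.78 to 4.43, 5.12 and 4.88. Bdnf, the activity-induced neurotrophin, fell from 3.34, 3.32 and 3.20 to 1.19, 2.32 and 2.68, and its difference of -1.22 became -0.78, no longer called, without OGD replicate 1. Of the other factors, Runx1, a regulator of blood and glial lineages, rose by 1.94 ± 0.20, from 0.43, 0.42 and 0.89 to 2.69, 2.34 and 2.53.

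Promoters of called genes were searched on both strands for the cAMP response element TGACGTCA and the AP-1 element TGACTCA, which share no full match, in the 250 bases before and 50 after the start given by RefSeq (build GRCr8). The AP-1 letters were in 11 of 200 promoters of genes called higher (5.5%), 14 of 278 called lower (5.04%) and 3.89% of 12384 promoters of tested genes. The cAMP letters were in 4 of 200 (2.0%), 3 of 278 (1.08%) and 2.57%. The hypoxia core ACGTG was in 24.0%, 20.9% and 22.0%, the E-box CACGTG, which holds that core, in 9.5%, 6.47% and 7.88%, and the antioxidant form TGACNNNGC in 16.5%, 11.5% and 13.5%. Over all 27457 promoters of that length the 5 shares, in the order above, were 4.53%, 1.91%, 19.7%, 6.65% and 12.2%. The promoters of 4 genes described in the text each hold 1 of the first 2 motifs and are printed 5′ to 3′ with the motif in capitals, as examples of where the letters lie. They are at chr1:89181113-89181412 (Plaur, plus strand), chr3:164714477-164714776 (Procr, plus strand), chr4:5894526-5894825 (Il6, minus strand) and chr14:17265592-17265891 (Areg, minus strand). The motif begins at -83, -217, -162 and -91 from the start.
Plaur: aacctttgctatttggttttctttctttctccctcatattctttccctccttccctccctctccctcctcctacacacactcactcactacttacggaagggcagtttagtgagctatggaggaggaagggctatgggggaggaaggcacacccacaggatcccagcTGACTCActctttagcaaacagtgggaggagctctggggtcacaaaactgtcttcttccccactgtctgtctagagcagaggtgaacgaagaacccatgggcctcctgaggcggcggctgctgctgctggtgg
Procr: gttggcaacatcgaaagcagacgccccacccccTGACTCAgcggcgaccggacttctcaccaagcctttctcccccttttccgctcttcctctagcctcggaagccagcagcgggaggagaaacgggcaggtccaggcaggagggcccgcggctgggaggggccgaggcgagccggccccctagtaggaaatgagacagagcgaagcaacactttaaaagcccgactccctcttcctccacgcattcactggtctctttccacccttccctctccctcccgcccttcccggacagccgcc
Il6: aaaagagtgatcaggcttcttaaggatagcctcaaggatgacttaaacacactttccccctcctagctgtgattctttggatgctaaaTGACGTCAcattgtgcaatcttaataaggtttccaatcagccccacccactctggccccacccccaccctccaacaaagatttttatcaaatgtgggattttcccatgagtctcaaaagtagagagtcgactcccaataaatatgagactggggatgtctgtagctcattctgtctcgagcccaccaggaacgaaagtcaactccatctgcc
Areg: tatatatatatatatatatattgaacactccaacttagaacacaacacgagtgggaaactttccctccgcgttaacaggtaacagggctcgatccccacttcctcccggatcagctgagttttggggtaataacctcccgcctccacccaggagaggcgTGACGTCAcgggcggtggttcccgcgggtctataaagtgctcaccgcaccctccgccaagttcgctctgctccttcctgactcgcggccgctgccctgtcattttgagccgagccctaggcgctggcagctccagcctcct

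The EGF receptor ligands Ereg, Areg and Hbegf were called higher. Ereg, epiregulin, a ligand of EGF receptors, read -0.85, -1.66 and -0.76 in controls and 1.93, 1.32 and 1.24 after OGD, a difference of 2.59 ± 0.32 (limma adjusted p = 0.132, and 0.0269 with dim probes left out). Areg, amphiregulin, whose promoter holds the cAMP element, went from -0.35, -0.91 and -0.98 to 1.53, 0.66 and 0.34, and Hbegf, the heparin-binding ligand, from 4.63, 4.23 and 5.07 to 6.34, 5.82 and 5.77. All 3 ligands were above every control on every OGD array. With Igfbp3 (1.26 ± 0.15), a carrier of insulin-like growth factors, they were the 4 genes called higher among 40 neurotrophins and growth factors, and 2 were called lower (Bdnf and Ntf4, the latter not well above background on any OGD array and at 0.71 under the normexp correction), with a list median of -0.10 (0.02 when the 75th percentile was set to 0).

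Among 47 genes of TGF-beta, activin and BMP signalling, 5 were called higher and 2 lower (median 0.08, with -0.73 under spike-in scaling and -0.07 under the normexp correction). The 5 higher calls became 2 by the methods' t-test and 0 under spike-in scaling. Bmp2, a morphogen that also drives astrocyte fate, read 0.88, 0.55 and 1.57 in controls and 3.04, 2.80 and 3.08 after OGD, 1.98 ± 0.28 higher (limma adjusted p = 0.145, and 0.0322 with dim probes left out). Fst, follistatin, which binds and blocks activin, rose from 0.61, -0.24 and 0.80 to 3.70, 2.16 and 2.10. Gdf15, a stress-induced member of the family, differed by 1.61 ± 0.55 and lost its call without control replicate 2 (1.23), OGD replicate 1 (1.21) or OGD replicate 3 (1.49). Tgfbr2 (1.05) was the fifth. Tgfb1 (1.16) lost its call without control replicate 1 (0.90), control replicate 2 (1.04) or OGD replicate 2 (1.05). Of the genes called lower, Bmp3 (-1.02) kept its call only when control replicate 3 was left out.

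**Figure D2:**
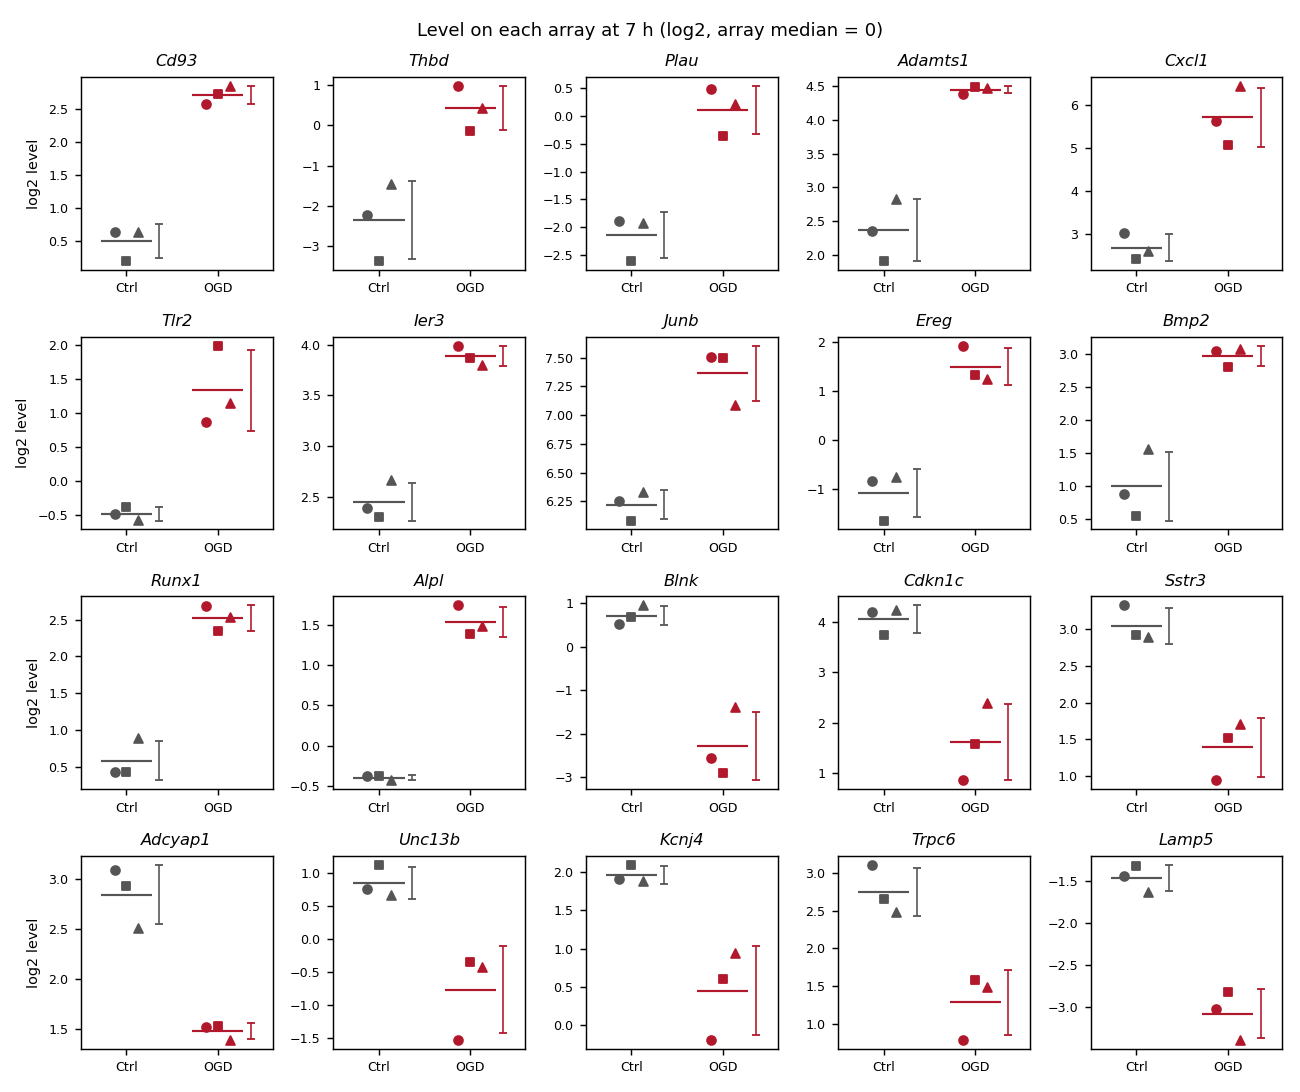
Log2 level on each array (array median at 0) of 20 genes, controls in grey and OGD in red, with circles, squares and triangles for replicates 1, 2 and 3, a line at the mean of 3 arrays and a bar of 1 SD beside it; the axes differ between panels. In all 20 genes the 3 OGD arrays lie on 1 side of the 3 control arrays, for example above for Cd93 and Ereg and below for Blnk and Sstr3.

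Other genes called higher included Alpl, alkaline phosphatase, with the lowest p on the array. It read -0.38, -0.38 and -0.43 in controls and 1.74, 1.38 and 1.48 after OGD, 1.94 ± 0.16 higher (limma adjusted p = 0.107, and 0.0171 with dim probes left out). Dio3, which inactivates thyroid hormone, rose from 2.10, 2.36 and 3.11 to 4.44, 4.97 and 4.59. Dlk1, a ligand-like protein of precursor cells, rose by 1.64 ± 0.19 and Fgf18, a fibroblast growth factor, by 1.28 ± 0.16. Gpx2, a glutathione peroxidase, went from -1.59, -1.86 and -0.44 to 1.83, 1.12 and 0.78, and its second probe differed by 1.98. Stc1, stanniocalcin, rose from -0.74, -0.70 and -0.81 to 0.77, 0.96 and 0.30. None of these passed adjustment over all probes.

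Lists of cell stress and metabolism showed few calls, where 1.64% of all named genes were called higher and 2.27% lower. At p under 0.05 by limma, 5.45% of all named genes were higher and 11.9% lower. Of 28 genes induced by hypoxia, 1 was called higher, Adm (adrenomedullin, a vasodilator), from 5.09, 4.52 and 5.63 to 7.05, 6.26 and 6.11, with a list median of 0. Vegfa, the vascular growth factor, was measured at 6.19, 5.54 and 5.19 in controls and 5.81, 5.71 and 5.30 after OGD (difference -0.03), while its other probes differed by 0.13, 1.28 and 0.78. Of 24 heat shock proteins, Cryab alone was called higher, from 6.26, 5.84 and 6.22 to 9.13, 7.16 and 7.12, and its difference of 1.69 fell to 1.03 without OGD replicate 1 and missed the threshold on p without control replicate 2 (1.56). Among 35 genes of the unfolded protein and integrated stress response none was called by limma, with 5 higher and 4 lower at p under 0.05. Ddit3, the factor CHOP, differed by 0.39 and Trib3, its target, by 0.52, with overlapping groups.

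The antioxidant and metallothionein list had no call among 32 genes by limma, 12 higher and 1 lower at p under 0.05, and a median of 0.38 (-0.42 under spike-in scaling, -0.05 under normexp), or 0.22 over the 22 members with no saturated spot, of which 4 were higher at p under 0.05. Hmox1, haem oxygenase, read 7.01, 6.28 and 7.15 in controls and 8.04, 7.2 and 7.70 after OGD, a difference of 0.83. Of 39 enzymes of glycolysis and the TCA cycle 1 was called lower, Eno2 (-1.1), the neuronal enolase, and it lost the call without control replicate 2 (-0.95) or OGD replicate 1 (-0.98). None of 70 respiratory chain genes, 28 cholesterol genes, 44 proteasome subunits or 19 aminoacyl-tRNA synthetases was called by limma. At p under 0.05 these lists had 13, 2, 1 and 0 members higher and 2, 4, 5 and 6 lower, in that order. Among the 46 respiratory chain genes with no saturated spot, 1 was higher.

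The 75 cytosolic ribosomal protein genes had a median of 0.63, and 61 were higher and none lower at p under 0.05, though none reached the fold of 2. Saturation touches this count. Of the 75 probes, 42 were saturated on all 6 arrays, and a saturated probe reads the ceiling of the scanner on every array, so its difference follows the median intensity of the array rather than the RNA. The slide medians of the list were 1.25, 0.25 and 0.38, the largest on the slide with the widest gap in median intensity. The 15 members with no saturated spot had a median of 0.35 with 4 higher at p under 0.05, and after quantile normalization the median of all 75 was 0.06 and under spike-in scaling -0.18. Over all named genes, the 269 with a saturated spot had a median of 0.56 and the others -0.11.

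**Figure D3:**
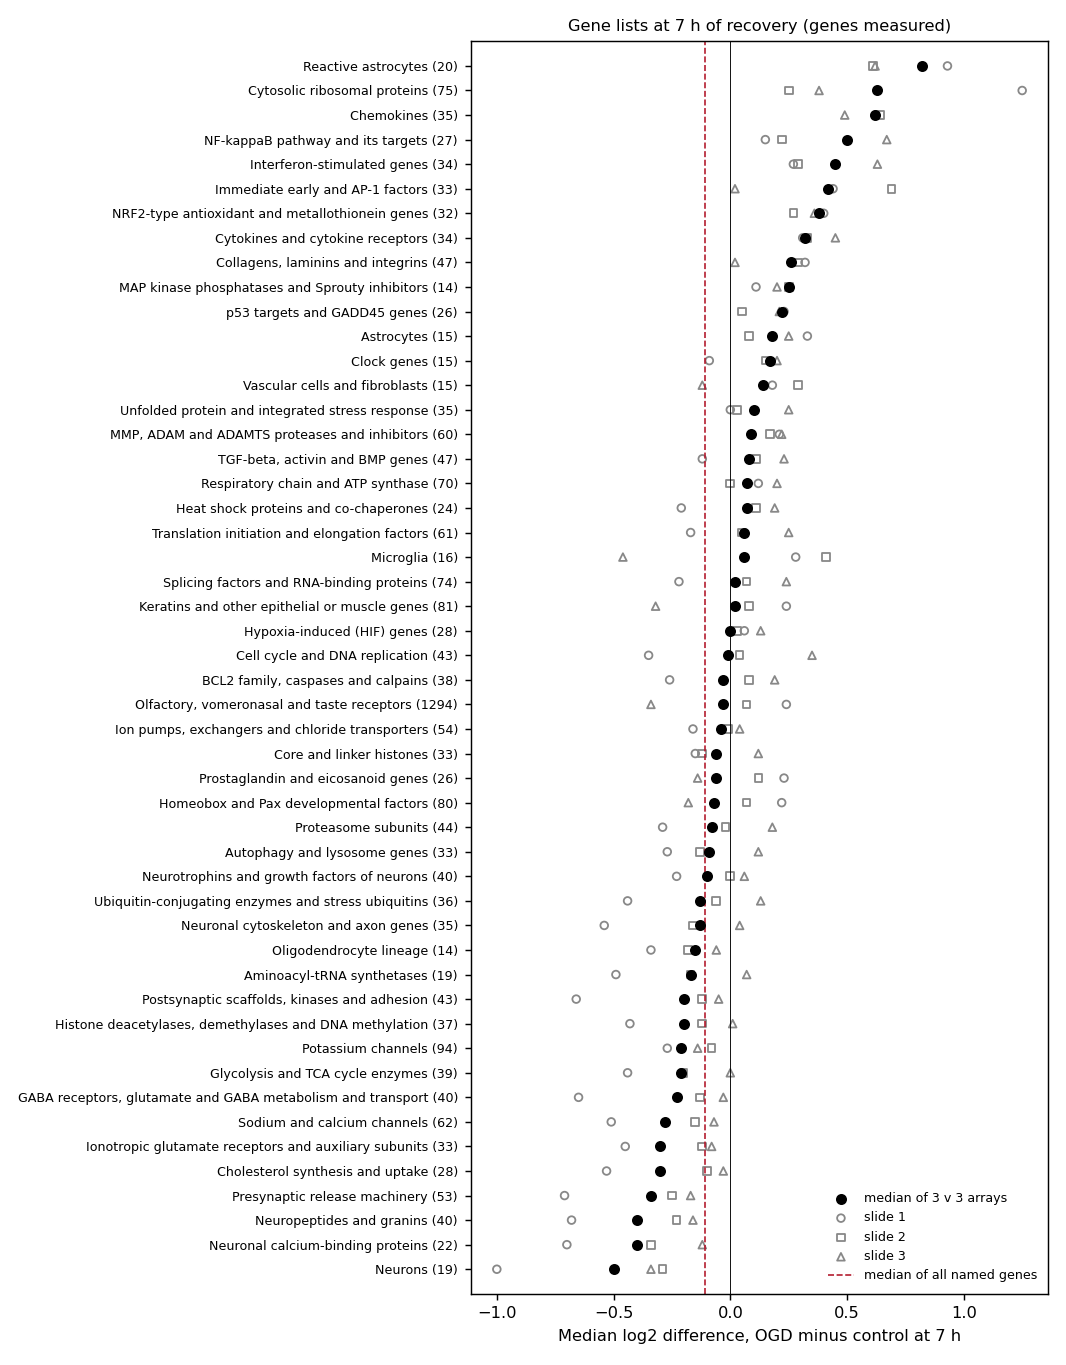
Median log2 difference (OGD minus control at 7 h) of each of 50 gene lists, with the number of genes measured beside its name; black dots are the 3 against 3 comparison, open symbols the same median within each slide and the dashed line the median of all named genes (-0.11). Reactive astrocyte, chemokine and ribosomal protein genes lie at the top and neuron markers at the bottom, where slide 1 lies farthest from 0.

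Lists of synaptic and neuronal signalling genes had medians below 0 and few calls each, where 2.27% of all named genes were called lower and 11.9% were lower at p under 0.05. The median over all named genes was itself -0.11, and slide 1 lay farthest from 0. Medians on slides 1, 2 and 3 were -0.66, -0.12 and -0.05 for postsynaptic genes and -0.45, -0.12 and -0.08 for ionotropic glutamate receptors. For potassium channels they were -0.27, -0.08 and -0.14, and for sodium and calcium channels -0.51, -0.15 and -0.07. Presynaptic release genes had 2 of 53 called higher and 3 lower, with 20 lower and 6 higher at p under 0.05 and a median of -0.34. Unc13b, a Munc13 protein that primes vesicles, fell from 0.75, 1.12 and 0.66 to -1.53, -0.35 and -0.43, by 1.61 on the log2 scale. Synpr, synaptoporin, fell from 2.90, 2.34 and 2.50 to 0.91, 1.5 and 1.98, its second probe differing by -1.08, and lost its call without control replicate 1 (-0.95) or OGD replicate 1 (-0.84). Unc13c, a paralog of Unc13b, went the other way, from -3.08, -2.99 and -3.24 to -1.15, -1.65 and -2.61, with 0.98 without OGD replicate 1, and its second probe was not well above background on any of the 6 arrays.

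Of 33 ionotropic glutamate receptor subunits and auxiliary proteins 1 was called lower, Cacng3 (-1.32), a regulator of AMPA receptor traffic, and 5 were lower and 2 higher at p under 0.05 (median -0.30), shares near those over all named genes. Of 43 postsynaptic genes 3 were called lower, Clstn3 (-1.18), Dlgap2 (-1.08) and Pick1 (-1.08). Without control replicate 2 each of these missed the fold of 2, all 3 at -0.98, and without OGD replicate 1 the last 2 were at -0.86 and -0.83. The vesicular glutamate transporters fell together: Slc17a7 from 1.5, 1.86 and 1.35 to -0.17, 0.71 and 0.63, and Slc17a6 from 5.67, 5.46 and 5.11 to 3.55, 4.67 and 4.61. Without OGD replicate 1 these were at -0.90 and -0.77, and Slc17a6 also missed the threshold without control replicate 1 (-1.01). Glra2, a glycine receptor subunit, was called higher, from 5.94, 6.14 and 5.79 to 7.30, 7.52 and 6.45, and was at 0.92 without OGD replicate 2.

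Potassium channels had 1 of 94 genes called higher and 4 lower, and sodium, calcium and TRP channels 0 of 62 higher by limma (2 at p under 0.05) and 5 lower, with medians of -0.21 (0.07 under the normexp correction) and -0.28. The shares over all named genes were 1.64% called higher and 2.27% called lower. Kcnj4, an inward rectifier of forebrain neurons, fell from 1.91, 2.09 and 1.88 to -0.19, 0.60 and 0.94. Trpc6, a cation channel opened by diacylglycerol, fell from 3.11, 2.65 and 2.49 to 0.78, 1.58 and 1.48, and Cacnb2, an auxiliary subunit of calcium channels, from -0.23, -0.16 and -0.56 to -1.78, -1.35 and -1.38. These 3 kept their calls without any single array. Trpm2, a channel gated by oxidative stress, differed by -1.06, and by -0.94 without OGD replicate 1.

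Among neuropeptide genes and their receptors, 1 of 40 was called higher and 7 lower, with 3 higher and 11 lower at p under 0.05 and a median of -0.40. Adcyap1, which encodes the peptide PACAP, fell from 3.08, 2.93 and 2.51 to 1.52, 1.53 and 1.39, by 1.36 on the log2 scale (SE 0.19, limma adjusted p = 0.145, and 0.0363 with dim probes left out). Somatostatin receptors fell too: Sstr3 from 3.33, 2.93 and 2.89 to 0.94, 1.52 and 1.71, and Sstr1 from 2.87, 2.28 and 2.0 to 0.43, 0.87 and 1.18. Their ligand Sst read 7.26, 6.93 and 6.24 against 6.77, 6.88 and 6.32, with overlapping groups. Pcsk2, a convertase that cuts neuropeptide precursors, differed by -1.53 ± 0.35. Tac1, the precursor of substance P, differed by -1.07 and was at -0.97 without control replicate 1 and -0.89 without OGD replicate 3. Penk, the enkephalin precursor, differed by -1.01 and lost its call without control replicate 3 (-0.86), OGD replicate 1 (-0.91) or OGD replicate 2 (-0.79). Npy5r (-1.12), a neuropeptide Y receptor, was the seventh. Gal, galanin, was the exception on the high side, from 3.01, 2.75 and 4.48 to 6.24, 6.63 and 6.68, a difference of 3.10 ± 0.46, and its second probe differed by 3.21.

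Large falls among genes well above background on all 6 arrays were also found outside these lists. Blnk, an adaptor of B cell receptor signalling, read 0.52, 0.67 and 0.95 in controls and -2.57, -2.90 and -1.40 after OGD, -3.0 ± 0.40 (limma adjusted p = 0.141, and 0.0269 with dim probes left out). Cdkn1c, the cyclin-dependent kinase inhibitor p57, fell from 4.20, 3.75 and 4.24 to 0.87, 1.58 and 2.39, and its second probe differed by -2.01. Atoh7, a proneural factor of the retina, fell from 1.05, 0.52 and -0.12 to -1.32, -1.53 and -1.55. Lamp5, a membrane protein of a class of forebrain interneurons, fell from -1.43, -1.32 and -1.63 to -3.02, -2.82 and -3.39. In these 4 genes the groups do not overlap.

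The lists of cell type markers share members with the lists above. Slc17a7 and Slc17a6 are also in the GABA and glutamate list, and Eno2 is also in the glycolysis list. Their calls among the neuron markers are the same calls and add no separate support. Of 19 neuron markers none was called higher by limma (0 at p under 0.05) and 3 lower (Slc17a7, Slc17a6 and Eno2), 9 were lower at p under 0.05, and the median was -0.50 (slides -1.0, -0.29 and -0.34). Their summed linear level was 738 to 956 times the array median in controls and 640 to 890 after OGD, with overlapping ranges, and Map2 (0.26), Stmn2 (0.31) and Tubb3 (-0.05) did not fall. Without OGD replicate 1 none of the 3 was called, with Eno2 at -0.98, and the presynaptic list kept 1 lower call. In bulk RNA, fewer neurons and less RNA per neuron cannot be told apart, and the part of either in the lower synaptic genes was not tested. The scan gap of slides 1 and 2 ran with the condition, and its part was not tested: within slide 3, scanned together, the medians of the presynaptic, neuropeptide and neuron lists were -0.17, -0.16 and -0.34. On that slide the postsynaptic and ionotropic glutamate receptor lists were at -0.05 and -0.08. The potassium and the sodium and calcium channel lists were at -0.14 and -0.07 there.

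Of 15 astrocyte markers none was called (3 higher and 1 lower at p under 0.05 by limma), and the median was 0.18 (-0.63 under spike-in scaling and -0.37 under normexp). Gfap, the astrocyte filament, read 5.98, 6.06 and 6.25 in controls and 6.36, 5.83 and 6.45 after OGD. The summed level of the list was 1340 to 1450 in controls and 1590 to 1970 after OGD, without overlap, but 3 of the 15 members had a saturated spot, Ndrg2 on all 6 arrays, Slc1a3 on 4 and Aqp4 on 1. Over the 12 without one, 1 was higher at p under 0.05. The 20 genes of reactive astrocytes had a median of 0.82 (slides 0.93, 0.61 and 0.62), the highest of the 50 lists as centred here but not after quantile normalization (0.71, with chemokines at 0.72) or normexp (0.56, with 4 lists above it), with 4 called higher and none lower. Emp1, an epithelial membrane protein, rose from 3.83, 3.22 and 4.14 to 5.98, 5.27 and 5.08. Ptx3, a secreted pattern recognition protein, rose from 5.15, 4.62 and 4.01 to 5.77, 5.71 and 5.82, was at 0.88 without control replicate 3, and its second probe differed by 1.09. Tgm1, a transglutaminase, rose by 1.21 and missed the fold of 2 without control replicate 2 (0.99) or OGD replicate 3 (0.97). The groups overlap for the fourth, Serpina3n (1.56), whose call was lost without any 1 of 4 arrays (1.04 without control replicate 1, 1.53 without control replicate 2, 1.57 without OGD replicate 2 and 1.29 without OGD replicate 3). Under spike-in scaling the median of the reactive list was 0.01 and none was called, where the median over named genes was -0.91, and the medians of 22 of the 50 lists turned sign.

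Of 16 microglia markers 1 was called higher, Cx3cr1 (1.02), the fractalkine receptor, and it missed the threshold without control replicate 1 (0.97), control replicate 3 (0.99), OGD replicate 1 (0.85) or OGD replicate 2 (0.85). The list median was 0.06 (-0.75 under spike-in scaling) and its summed level 49.9 to 70.7 in controls and 61.3 to 73.3 after OGD. Aif1 differed by -0.19 with its main probe and 1.72 with another. Ptprc, the leukocyte antigen CD45, was not well above background on any of the 6 arrays. The part of these cells in the chemokine and NF-kappaB lists was not tested.

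Many of the highest differences belonged to probes with 1 common profile, a pattern seen in the values and given without a test. Over the 12 arrays, 62 probes correlated at 0.97 or more with the probe of Mcc. They share the arrays, and 50 had no gene name. At 7 h their median level was 1.68, 1.53 and 0.54 on the control arrays and 6.25, 4.20 and 2.88 on the OGD arrays, so OGD replicates fell in the order 1, 2, 3 while the array medians rose from 234.2 through 363.8 to 425.7 units. The median difference was 3.02, with 4.54, 2.55 and 1.96 on the 3 slides, and 61 of the 62 were among the 670 called higher (9.1%).

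The 12 named members do not form a family: Mcc, Evc2, Krt80, Ckm, Apol7b, Nkx2-3, Defb43, Slc26a2, Sdc4, Pinx1, Or8g36b and Pou6f1 range from a creatine kinase to a keratin and an olfactory receptor. Nkx2-3 is a homeobox factor of gut and spleen, and read -2.76, -2.57 and -2.44 in controls and 2.87, 0.31 and -1.37 after OGD. Krt80, a keratin, read 1.68, 1.53 and 0.56 against 6.13, 4.03 and 2.89. Of the 50 called probes with the highest difference among those well above background on all 6 arrays, 34 were in the set. For Nkx2-3, Slc26a2 and Defb43 the differences of 3.19, 3.03 and 2.87 became 2.06, 1.98 and 1.79 without OGD replicate 1. Opalin, Rhox12 and Susd3, outside the set, correlated with the Mcc probe at 0.97 (rounded), 0.94 and 0.89, and their differences became 2.04, 1.69 and 1.5 without that array. Rhox12 lost its call without control replicate 1 (2.53), control replicate 2 (2.63) or OGD replicate 2 (2.74), as Susd3 did (2.24, 2.65 and 2.64). Cd93 and Plau were not in the set, whose size depends on the cut-off: 122 probes were at a correlation of 0.95 and 323 at 0.9. Of the genes described above, Plau correlated with the Mcc probe at 0.84, Ereg and Cxcl1 at 0.86, Gpx2 at 0.87 and Ier3 at 0.92. Junb was at 0.41 and Tlr2 at 0.32. Whether array brightness has a part in this profile was not tested. With the 62 probes left out, 609 were called higher, a count that keeps probes with a like profile under the cut-off.

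**Figure D4:**
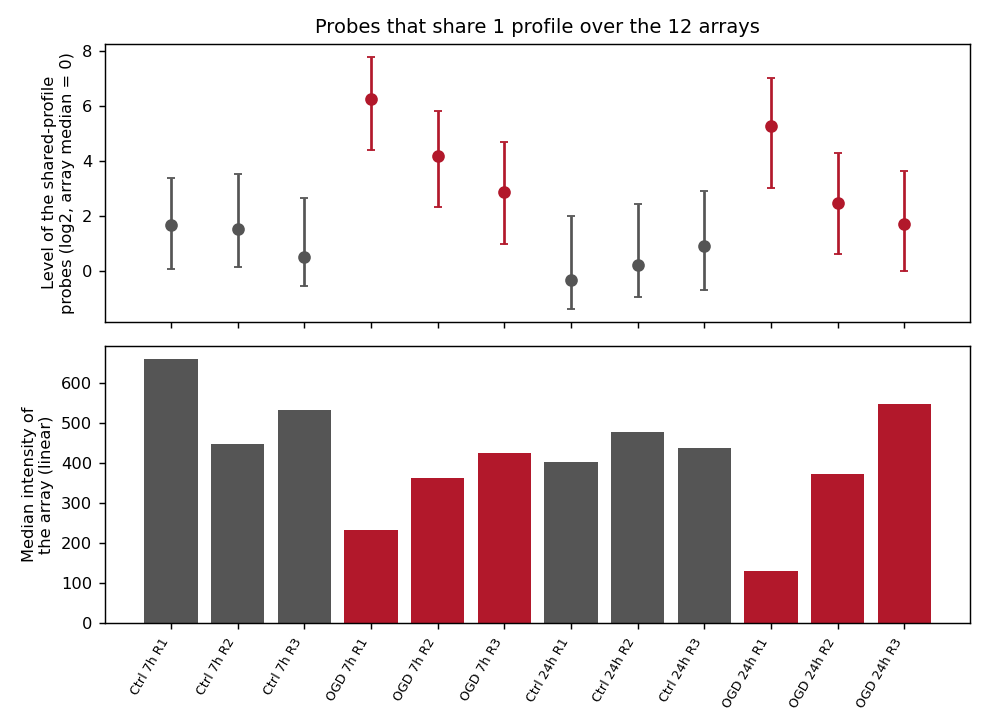
Upper panel, median log2 level (array median at 0) of 62 probes with 1 common profile on each of the 12 arrays, with bars from the lower to the upper quartile over probes; lower panel, median linear intensity of the same arrays, controls in grey and OGD in red. On the 7 h arrays the OGD medians were 6.25, 4.20 and 2.88 and the controls 0.54 to 1.68.

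Genes well above background on all arrays of 1 group and on none of the other were given a bound on the fold. It took each dim array at the weakest signal still well above background, or at its own reading where that was higher. For Slc26a3, Or8g36b and Hoxd12 the bound equals the fold of the measured difference, so it is no lower limit. Slc26a3, an anion exchanger of gut epithelium, was not well above background in controls (-4.76, -5.07 and -4.79) and was on all OGD arrays (-1.81, -3.23 and -3.30), 4.26-fold higher (limma adjusted p = 0.185). Or8g36b, with the common profile described above, was 10.9-fold higher. Hoxd12, which is not in that set but correlated with the Mcc probe at 0.97 after rounding, was 7.96-fold higher. Without OGD replicate 1 the difference of Or8g36b went from 3.45 to 2.25 and that of Hoxd12 from 2.99 to 1.82. Or7g20, an olfactory receptor, was at least 4.12-fold higher, and lost its call without control replicate 1 (2.48), control replicate 3 (1.51) or OGD replicate 2 (1.34). Hoxd12 lost it, on p, without control replicate 1 (2.87). In the other direction Agtr1b, an angiotensin receptor, read -1.91, -2.16 and -2.94 in controls and was not well above background on any OGD array, at least 4.05-fold lower (limma adjusted p = 0.132), though its measured difference of -2.29 turned to 0.31 under the normexp correction.

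The 24 h arrays, on 3 other slides, read the same probes, and the sources used here do not say whether equal replicate numbers at the 2 times came from the same culture preparation. Of the 670 probes called higher at 7 h, 93.3% were also above 0 at 24 h and 54.8% were called higher again, where 3.71% of all probes were called higher at 24 h. Of the 555 called lower, 86.3% were below 0 and 28.3% were called lower again, against 1.96% of all probes. Over all probes, 72.9% of those above 0 at 7 h and 65.2% of those below 0 kept their sign. The median difference of the probes called higher was 1.5 at 7 h and 1.49 at 24 h, and of those called lower -1.21 and -0.77, where the 7 h values come from the contrast that chose the probes.

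The difference between the 2 responses was tested as an interaction in a limma fit of all 12 arrays. No probe passed adjustment (lowest adjusted p = 1.0), and 1086 of 30367 had an unadjusted p under 0.05, a share smaller than 0.05 itself. The genes below were picked among those called at 7 h, and the 7 h difference is part of the interaction. That choice favours a difference closer to 0 at 24 h and a low unadjusted p, so these values do not show transient genes. Within that limit, several of the genes above had a difference closer to 0 at 24 h than at 7 h. Tlr2 differed by 1.81 and -0.21 (limma interaction, unadjusted p = 0.0115), Adamts1 by 2.09 and 0.51 (0.00924), Junb by 1.15 and -0.23 (0.00379), and Fgf18 by 1.28 and 0.01 (0.0137). Of the genes called lower, Atoh7 differed by -1.95 and -0.23 (0.00114) and Cdkn1c by -2.45 and -0.71 (0.0904). Plau (2.25 and 3.18), Cd93 (2.23 and 2.77), Ereg (2.59 and 3.05), Cxcl1 (3.04 and 3.58) and Sstr1 (-1.55 and -1.90) were as far or farther from 0 at 24 h. These were not shown to differ between the times.

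**Figure D5:**
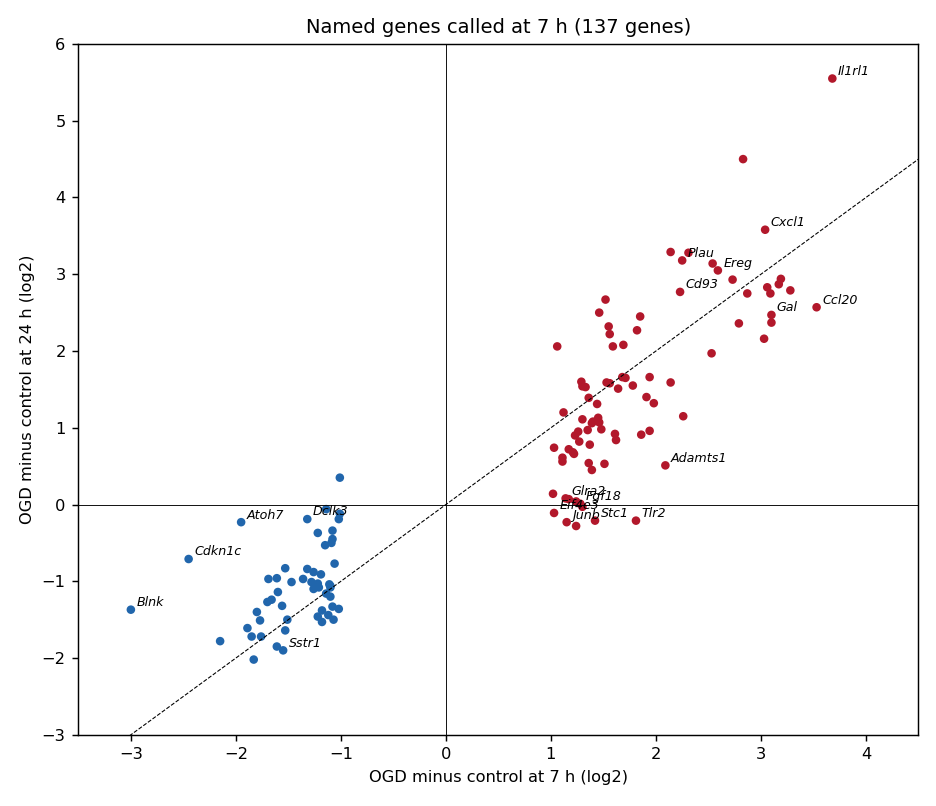
Log2 difference (OGD minus control) at 24 h against that at 7 h for 137 named genes called at 7 h and well above background on all 6 arrays of that time, red for called higher and blue for called lower; the dashed line marks equal differences. Tlr2, Adamts1, Junb and Fgf18 lie between -0.23 and 0.51 at 24 h, and Plau, Cd93 and Cxcl1 on or above the dashed line.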

How the data were processed

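RNA was hybridised to 12 one-colour Agilent arrays, with 3 independent cultures as biological replicates per the methods, and the authors extracted the deposited intensity values with Agilent Feature Extraction 10.5.1.1. The authors' own deposited log2 values, made with BRB-ArrayTools 3.8.1, differed from the values used here by a constant per array and served as an alternative. Here the log2 of the processed intensity of 30367 non-control probes was taken without outlier spots, replicate spots were averaged per probe, and each array was centred on its median. The number of arrays, 3 per group, limits the precision. Groups came from the sample titles. OGD was compared with control by limma 3.58.1 in R 4.3.3 (lmFit, eBayes, Benjamini-Hochberg over all probes), with calls at p under 0.05 and a fold of at least 2, after the methods' thresholds. The code was tested on simulated data. A gene was represented by its probe with the highest mean level, and 15154 genes had one. Genes were named by rule: the 10 highest and 10 lowest called genes outside the study's strongest and qPCR genes, up to 3 called members per list and direction, and the 5 highest bounds. Other genes were named after their values were seen. The comparison, its members and the 50 gene lists were chosen with earlier results of these data known. Alternatives were other scalings, background correction, filters, tests, fits and left-out arrays. Normexp (offset 50) used the median spot signal. Figures were drawn with matplotlib 3.10.9. Some genes are not reported here.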

Additional observations from a re-analysis of the deposited data

Results flagged for a closer look

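Stc1, Slc25a21, Kcns1 and Itgb2 had differences of opposite sign at the 2 times, and for each the difference between the times was tested as an interaction by limma over 12 arrays, with an adjusted p of 1.0. Each was called at 7 h, and that difference is part of the interaction, so the choice favours a low unadjusted p. Stc1, stanniocalcin, differed by 1.42 at 7 h and -0.21 at 24 h (limma interaction, unadjusted p = 9.7e-05). On each slide its OGD array lay above the control array at 7 h and below it at 24 h. Slc25a21, a mitochondrial carrier, differed by -1.42 and 1.26 (0.000287), and was not well above background on any OGD array at 7 h. Kcns1, a potassium channel subunit, differed by -1.13 and 0.52 (0.00383), and Itgb2, a leukocyte integrin, by -1.06 and 0.31 (0.00638). Neither was well above background on any OGD array at 7 h, and Itgb2 was on 1 control array. Under the normexp correction the 7 h differences of Slc25a21, Kcns1 and Itgb2 were 0.55, 0.48 and 0.75, the same sign as at 24 h. The 24 h differences of Stc1, Kcns1 and Itgb2 did not pass the threshold on p.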

How the results depend on the processing

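No probe passed an adjusted p under 0.05 by limma in the comparison reported (5453 at an unadjusted p under 0.05), and the exceptions were 85 with dim probes left out, 37 under spike-in scaling and 1 by the methods' t-test. Spike-in scaling, which rests on 1 of 10 kinds of spike-in probe, gave 174 probes higher, 2598 lower and 2772 at p under 0.05. Normexp background correction gave 2144, 1211 and 10415. The methods' t-test called 380 higher, setting the 75th percentile to 0 gave 353 lower, and 1 fit of 12 arrays gave 3590 at p under 0.05. Leaving out 1 array at a time gave 476 to 1186 higher, 332 to 826 lower, 3148 to 5962 at p under 0.05 and 0 at an adjusted p under 0.05. The lowest counts of higher and lower calls came without OGD replicate 1 and the highest without OGD replicate 3. With the slide as a replicate block, 680 were higher, 548 lower, 4509 at p under 0.05 and 0 at an adjusted p under 0.05, and 169 of 172 called named genes kept their call. Deviations of same-numbered arrays correlated at -0.031, 0.313 and 0.178, and those of arrays with unlike numbers at -0.287 to 0.074. Numbers 2 and 3 thus lay above that range and number 1 within it. The labels do not say whether equal numbers are the same culture preparation, and the reported fit did not pair them. Under normexp, 19 named genes called lower turned sign: Adam2 0.41, Mmp28 0.12, Mmp9 0.27, Itgb2 0.75, Ntf4 0.71, Casp8 0.25, Kcns1 0.48, Atp2a1 0.56, Myh4 0.51, Or4k35 0.53, Or1l4 0.76, Or4f7 0.68, Cldn5 0.74, Agtr1b 0.31, Gna15 0.62, Klhl41 0.35, Klrb1a 0.59, Rasgrp1 0.45 and Slc25a21 0.55. The offset of 50 is added to every spot before centring, and its part in these changes of sign was not tested. Of the 172, 137 kept their call by the t-test, 97 under spike-in scaling and 90 under normexp.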
